A study of Mus musculus with 3 samples.

Results

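The cells described here are progenitors of mouse bone marrow that carried many transcripts of Irf8, a transcription factor needed for dendritic cell development, and few or none of Ebf1, the factor that opens the B cell programme. A cell was a member when it had 8 or more Irf8 UMIs (unique molecular identifiers, each standing for 1 captured transcript) and at most 1 Ebf1 UMI, among cells with 500 or more detected genes and at most 10% mitochondrial UMIs. The rule took 103 of 1527 cells: 88 of 948 common lymphoid progenitors (CLP; 9.28%, exact Clopper-Pearson 95% interval 7.51 to 11.3%) and 15 of 579 lymphoid-primed multipotent progenitors (LMPP; 2.59%, 1.46 to 4.24%). No member was found among 1106 pro-B cells, where the same rule was applied for comparison. The 1 pro-B cell with 8 or more Irf8 UMIs had 9 of them and 13 of Ebf1.

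All 3 populations were sorted from C57BL/6J bone marrow and profiled with the 10x Chromium chemistry for transcript ends, with 1 library each, so no p-value is given and all intervals cover counting error only. The gates were cKit+ Sca1+ Flt3+, negative for IL7Ra and B220, for LMPP; cKit+ Sca1+ Flt3+/-, positive for IL7Ra and negative for B220, for CLP; and cKit+ IL7Ra+ B220+, negative for Sca1 and Flt3, for pro-B cells. About 3000 sorted cells were loaded per run. The labels give no treatment for these cells, and the sources used here do not give the age or number of mice, so a difference between CLP and LMPP members cannot be told apart from a difference between runs. Among cells outside the set, Il7r, which encodes IL7Ra, had a level of 143.6 CPM (counts scaled to 1000000 UMIs per group) in CLP and 2.32 CPM in LMPP, and UMIs of Flt3 were in 76.3% and 81.9% of cells.

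Irf8 acts in several blood lineages: high amounts mark the progenitors of dendritic cells, and lower amounts are found in B cell precursors. Plasmacytoid dendritic cells, which release type I interferon when they meet viral nucleic acid, depend on the E protein Tcf4 and carry Siglech and Bst2 at the surface, and can arise from lymphoid as well as myeloid progenitors. Conventional dendritic cells, which present antigen to T cells, use Batf3, Id2, Irf4 and Zbtb46 and express MHC class II.

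Irf8 and Ebf1 chose the members, so their values only describe the choice. CLP members had 8 to 50 Irf8 UMIs with a median of 17, and LMPP members 10 to 38 with a median of 23. Ebf1 was at 0 in 73 CLP members and at 1 UMI in 15, and at 0 in all 15 LMPP members. The threshold cut through a continuous range in CLP: 10 members stood at exactly 8 Irf8 UMIs, with 132.9 CPM of Siglech and 1063 CPM of Cox6a2, and 11 cells just outside stood at 7, with 93.1 and 621 CPM. In LMPP no cell had 8 or 9 Irf8 UMIs, 3 members had 10, and 1 cell just outside had 7. A further 13 CLP cells reached 8 Irf8 UMIs but had 2 or more Ebf1 UMIs, and they held 135.4 CPM of Siglech and 56.4 CPM of Cd79a, a B cell receptor gene.

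Members were deeper than the other cells of their library, with a median of 7811.5 against 6110.5 UMIs in CLP and 8732 against 6762 in LMPP. With a threshold scaled to depth, 10 or more Irf8 UMIs per 10000, the medians were 6338 against 6249 in CLP and as before in LMPP. Summed, the members held 682466 UMIs in CLP and 129792 in LMPP, so 3 UMIs, the limit that a count of 0 allows, correspond to 4.40 and 23.1 CPM. Levels are therefore given as CPM of the summed cells. Ribosomal protein genes took a median of 36.6% of UMIs in CLP members against 42.2% in the other CLP cells, and 40.2% against 43.2% in LMPP. Of the kept barcode sequences, 3 occurred in both CLP and LMPP, 2 in both CLP and pro-B and 1 in both LMPP and pro-B, and none of these cells was a member. A doublet caller marked 2 of the 88 CLP members and 0 of the 15 LMPP members.

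Of the given markers beside Irf8, all 4 were higher in CLP members, and Siglech and Ly6c2 in LMPP members. There Spib had only 2 UMIs, and Cybb too had too few UMIs for its ratio to be read. Apart from Siglech in CLP, each marker was seen in a minority of the members. Siglech, a lectin that marks plasmacytoid dendritic cells and their precursors, ranged from 0 to 12 UMIs per CLP member with a median of 2, and from 0 to 7 with a median of 0 in LMPP members. It stood at 275.5 CPM in CLP members against 20.8 in the other CLP cells (log2 ratio 3.73, 3.38 to 4.08), and at 115.6 against 3.60 CPM in LMPP (5.00, 3.85 to 6.16), where 4 of 15 members held its 15 UMIs and 1 cell held 7 of them. With every cell thinned to 2000 UMIs, which left out 40 other CLP and 6 other LMPP cells and no member, Siglech was found in 35.2% of CLP members and 4.88% of the other CLP cells, and in 13.3% against 1.08% in LMPP; without thinning the shares were 69.3% against 8.84% and 26.7% against 1.24%. None of the 1106 pro-B cells, a B lineage type that should lack this gene, had a Siglech UMI, at a median depth of 5688 UMIs against 7811.5 in CLP members; a count of 0 allows a share of up to 0.271%.

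Spib, an ETS factor of plasmacytoid dendritic cells, was seen in 20 of 88 CLP members (0 to 4 UMIs per cell) and stood at 42.5 against 2.46 CPM. Ly6c2, which encodes a surface protein of monocytes and of some dendritic cell precursors, was seen in 25 CLP members (83.5 against 3.41 CPM) and in 6 LMPP members (231.1 against 1.29 CPM, of whose 30 UMIs 25 were in 2 cells with 11 and 14). Its reads may be split with those of the near-identical Ly6c1, so its level is uncertain. Cybb, the catalytic subunit of the phagocyte NADPH oxidase, was seen in 17 CLP and 3 LMPP members, at 48.4 against 1.70 CPM and 30.8 against 0.515 CPM. The LMPP values rest on very few UMIs. Of these 4 markers (Siglech, Spib, Ly6c2 and Cybb), 21 CLP members had none and 7 had all, while 88.7% of the other CLP cells had none. Among LMPP members 6 had none and 1 had all, against 97.5% of the other LMPP cells with none. Among CLP members Ly6c2 and Cybb were mostly seen in cells with a Siglech UMI, 24 of 25 and 16 of 17. Siglech was itself in most CLP members, so 17.3 and 11.8 cells would hold both genes if they were independent. Spib was seen with Siglech in 16 of 20 cells, against 13.9 if independent.

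The members differed from the other cells of their own library in more than these genes. A gene was called higher or lower when its CPM differed by at least 2-fold and the higher group had at least 100 CPM and UMIs in at least 5 cells. In CLP, 104 of 1372 genes were higher (7.58%) and 29 lower (2.11%); in LMPP, 157 of 1463 were higher (10.7%) and 75 lower (5.13%). The interval excluded equal levels for all of these genes in CLP, and in LMPP for all 157 higher and for 74 of the 75 lower ones. At the minimum ratio and level of a call this is nearly sure beforehand, so these counts are no further support. The whole interval lay past 2-fold for 58 higher and 15 lower genes in CLP and for 49 and 17 in LMPP. The balance of the directions rests on the scaling: the median log2 ratio of all genes compared was 0.20 in CLP and 0.22 in LMPP, and median-of-ratios scaling, which brings it to 0.02 and −0.11, gave 74 higher and 52 lower genes in CLP and 86 and 193 in LMPP. Scaling without mitochondrial and ribosomal genes, under which more genes reach 100 CPM, gave 130 and 98 in CLP and 241 and 230 in LMPP.

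Without the rule's own genes, 53 genes were higher in members of both libraries, which is 51.5% of the 103 in CLP and 34.0% of the 156 in LMPP. A further 10 genes were lower in both, 35.7% of 28 and 13.3% of 75. No gene was called in opposite directions, and all 103 genes higher in CLP members had a ratio above 1 in LMPP. In the other direction, 143 of the 156 genes higher in LMPP members had a ratio above 1 in CLP, and so did 9 of the 75 lower ones. Of all genes compared, 898 of 1372 in CLP and 935 of 1463 in LMPP had a ratio above 1. The genes higher in both include many of dividing cells, such as Top2a, Mcm3, Lig1, Dut and Hells.

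**Figure D1:**
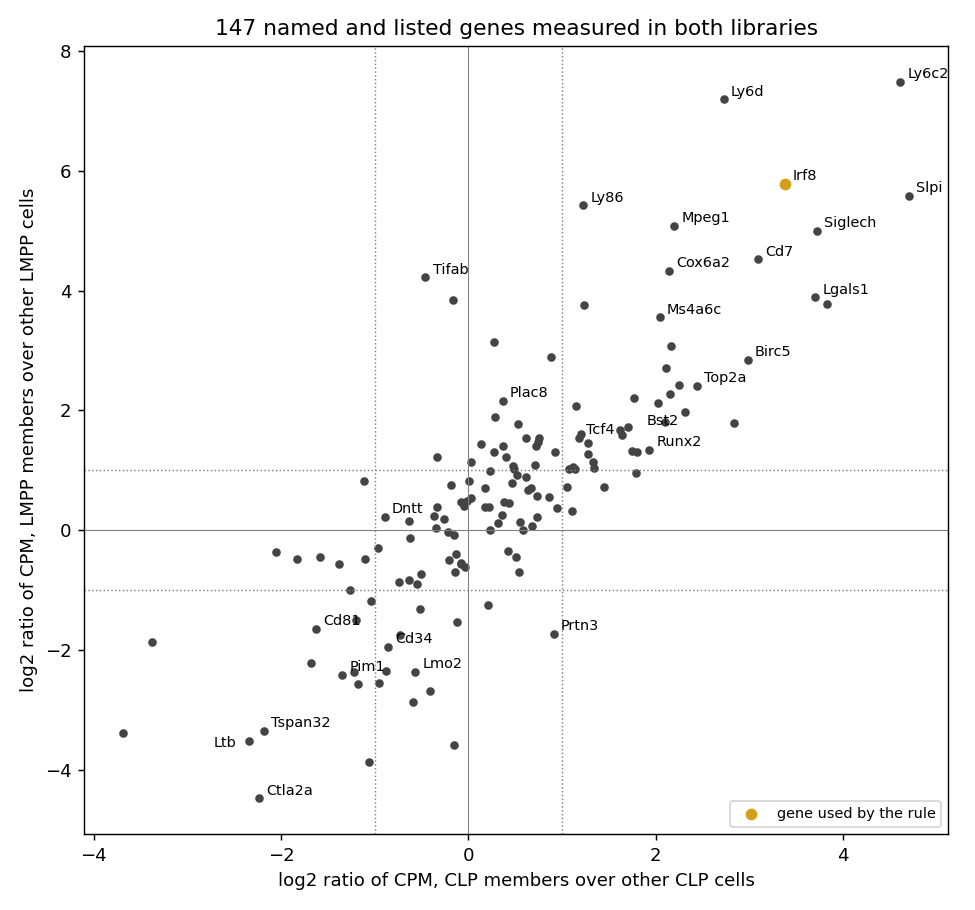
Log2 ratio of CPM of members over other cells, for CLP on the horizontal and LMPP on the vertical axis, for 147 named and listed genes measured in both libraries, with dotted lines at 2-fold. Slpi, Siglech, Ly6c2, Ly6d, Cd7 and Lgals1 lie at the upper right, Ctla2a and Tspan32 at the lower left, and Tifab is past 2-fold in LMPP but not in CLP.

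Among the genes higher in both libraries, the log2 ratio in CLP led with Slpi, a secreted inhibitor of serine proteases. It had 0 to 5 UMIs per CLP member, in 38 of 88 cells, and 0 to 5 per LMPP member, in 8 of 15 cells. Its level was 118.7 against 4.54 CPM in CLP (log2 4.71, 4.04 to 5.43) and 123.3 against 2.57 CPM in LMPP (5.58, 4.35 to 6.88), so the members of both libraries stood at a similar level. Lgals1, the lectin galectin-1, was more abundant, with 0 to 36 UMIs and a median of 7 per CLP member and 0 to 59 with a median of 12 per LMPP member. It stood at 1235 against 94.6 CPM in CLP (3.71, 3.54 to 3.87) and 2242 against 151.4 CPM in LMPP (3.89, 3.68 to 4.09). Cd7, a surface protein of T, NK and early lymphoid cells, stood at 112.8 against 13.25 CPM and 154.1 against 6.69 CPM, with all 20 of its UMIs in LMPP members in 5 cells.

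Ly6d, a surface protein that marks lymphoid progenitors biased to B and plasmacytoid dendritic cells, was seen more widely in CLP than in LMPP members. CLP members had 0 to 107 Ly6d UMIs with a median of 14, and 80 of 88 had at least 1. LMPP members had 0 to 79 with a median of 1, and 8 of 15 had at least 1. The level was 3518 against 530.9 CPM in CLP (log2 2.73, 2.65 to 2.81) and 1395 against 9.52 CPM in LMPP (7.19, 6.68 to 7.74), where 1 cell held 43.6% of the UMIs. Cox6a2, a cytochrome c oxidase subunit expressed in plasmacytoid dendritic cells, was in 87 of 88 CLP members (0 to 33 UMIs, median 10) and 13 of 15 LMPP members (0 to 12, median 6). It stood at 1509 against 342.5 CPM (2.14, 2.03 to 2.25) and at 716.5 against 35.5 CPM (4.33, 3.94 to 4.72). In build GRCm38 Ly6d lies at chr15:74762056-74763620 and Cox6a2 at chr7:128205435-128206387, both on the − strand and protein-coding. In pro-B cells Cox6a2 had 7 UMIs in all, or 0.950 CPM.

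The promoter of Siglech follows with those of the 4 genes that led the differences in both libraries among genes with a promoter entry, ranked by the bound of the ratio's interval nearest to equal levels in whichever library had the smaller one. They are shown because the summed level of each of these genes was higher in the members of both libraries. Whether single cells held these 5 genes together was not tested. Each sequence runs from 250 bases before to 50 bases after the RefSeq transcript start, on the gene's strand, in build GRCm38.p6. Capitals mark any of 5 motifs on either strand: CAGGTG or CAGCTG, E-boxes that E proteins such as Tcf4 can bind; GAAA, 2 bases of any kind and GAAA again, an interferon response element of the kind bound by IRF factors; GGAA, 2 bases of any kind and GAAA, a joint ETS and IRF element; and GAGGAA, an ETS core of the PU.1 type. Matches may overlap. The window of Siglech is chr7:55767934-55768233 (+ strand), that of Slpi chr2:164356458-164356757 (- strand), that of Fcer1g chr1:171234300-171234599 (- strand), that of Mpeg1 chr19:12460520-12460819 (+ strand) and that of Bst2 chr8:71537423-71537722 (- strand).
Siglech: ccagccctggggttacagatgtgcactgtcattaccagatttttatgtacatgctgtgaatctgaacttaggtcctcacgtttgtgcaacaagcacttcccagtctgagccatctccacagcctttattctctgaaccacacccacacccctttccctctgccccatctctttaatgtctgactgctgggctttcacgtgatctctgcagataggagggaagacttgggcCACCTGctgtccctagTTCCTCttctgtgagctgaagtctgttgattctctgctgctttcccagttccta
Slpi: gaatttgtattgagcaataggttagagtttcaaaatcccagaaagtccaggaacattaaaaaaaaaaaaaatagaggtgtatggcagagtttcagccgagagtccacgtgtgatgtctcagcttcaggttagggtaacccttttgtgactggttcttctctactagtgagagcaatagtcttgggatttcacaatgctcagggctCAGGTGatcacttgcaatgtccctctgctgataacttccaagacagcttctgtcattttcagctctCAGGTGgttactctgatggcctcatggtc
Fcer1g: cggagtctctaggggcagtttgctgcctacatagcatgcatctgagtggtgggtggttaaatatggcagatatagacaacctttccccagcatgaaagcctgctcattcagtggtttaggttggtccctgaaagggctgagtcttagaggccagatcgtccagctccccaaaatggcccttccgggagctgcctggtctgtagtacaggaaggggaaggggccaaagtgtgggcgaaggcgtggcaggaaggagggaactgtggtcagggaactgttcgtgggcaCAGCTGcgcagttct
Mpeg1: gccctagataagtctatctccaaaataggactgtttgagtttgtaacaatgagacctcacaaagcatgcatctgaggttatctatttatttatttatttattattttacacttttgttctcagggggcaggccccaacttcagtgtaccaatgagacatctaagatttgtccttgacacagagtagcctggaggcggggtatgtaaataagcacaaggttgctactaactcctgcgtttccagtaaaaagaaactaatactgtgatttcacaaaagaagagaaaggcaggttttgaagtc
Bst2: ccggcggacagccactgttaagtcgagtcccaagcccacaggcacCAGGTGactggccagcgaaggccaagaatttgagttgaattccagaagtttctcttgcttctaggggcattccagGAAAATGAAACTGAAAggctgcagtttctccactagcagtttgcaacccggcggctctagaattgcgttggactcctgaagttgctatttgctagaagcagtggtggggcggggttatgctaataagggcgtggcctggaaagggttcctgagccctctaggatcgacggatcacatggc
Siglech held 1 match of CAGGTG and 1 of GAGGAA, Slpi 2 of CAGGTG, Fcer1g 1 of CAGCTG, and Bst2 1 of CAGGTG and 2 overlapping matches of the interferon response element, while these letters were not found in this window of Mpeg1. Of 52 named genes higher in both libraries, 41 had a promoter entry. CAGGTG was in 14.6% of them and in 20.0% of 27025 promoters of the table, CAGCTG in 9.76% and 16.1%, the interferon response element in 7.32% and 3.49%, the joint element in 0 of 41 and 2.79%, and GAGGAA in 34.1% and 28.3%. These are counts of letters, not of bound sites.

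As a listed group, genes of plasmacytoid dendritic cells were higher in the members. The list holds the given markers Siglech and Spib and was drawn up with earlier results known, so its counts are a description. Of 21 listed, 17 could be measured in CLP, meaning that the mean of both groups came to at least 5 UMIs in the smaller one, and 11 of them were 2-fold or more higher and 2 lower (median log2 2.02). In LMPP, where 10 could be measured, 8 were higher and 0 lower (2.05). Over all measured genes 7.79% were higher and 5.65% lower in CLP (8149 genes, median 0.10), and 11.3% and 5.34% in LMPP (3035 genes, 0.19). Bst2, a surface protein that holds virus particles back, had 0 to 18 UMIs per CLP member and 0 to 30 per LMPP member, and stood at 589 against 144.8 CPM (2.02, 1.85 to 2.20) and 693.4 against 159.9 CPM (2.12, 1.78 to 2.44). Plac8 was already abundant in the other CLP cells (4003 against 3100 CPM) and stood at 5879 against 1313 CPM in LMPP. Tlr9, which senses DNA in endosomes, had no UMI in any member. Irf7, the inducer of type I interferon, had 5 UMIs in each set, or 7.33 against 30.5 CPM in CLP and 38.5 against 49.7 CPM in LMPP.

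Of 18 genes of conventional dendritic cells, 8 had no UMI in CLP members and 9 none in LMPP members. Batf3, Xcr1 and Cadm1 were at 0 in all 103 members, Clec9a had 1 UMI in an LMPP member, and Zbtb46 had 1 UMI in each library. Of the 6 genes that could be measured in CLP, 2 were 2-fold or more higher and 0 lower (median log2 0.34). The higher ones were Kmo, a gene of tryptophan breakdown, at 52.75 against 18.35 CPM, and Itgax, which encodes CD11c, at 9 UMIs in 7 cells or 13.19 against 1.70 CPM. In LMPP 1 could be measured, Ppt1, at 38.5 against 59.2 CPM. Of 7 MHC class II genes measured in CLP, 1 was 2-fold or more higher and 1 lower (median −0.19), and of 4 in LMPP 1 was higher and 2 lower (−1.08). All measured genes had shares of 7.79% higher and 5.65% lower in CLP and 11.3% and 5.34% in LMPP. Too few genes of these 2 lists were measured to set them against those shares. Cd74, the invariant chain, stood at 49.8 against 55.4 CPM in CLP (log2 −0.15, −0.71 to 0.36) and at 1 UMI, or 7.71 against 92.4 CPM, in LMPP. Set beside the label of dendritic-like cells, plasmacytoid markers were seen in part of the members. Of the markers of conventional dendritic cells, Batf3, Xcr1, Cadm1, Clec9a, Zbtb46 and Irf4 had at most 2 UMIs in either library. Kmo, Itgax, Ppt1, Wdfy4 and Dpp4 were among those detected in both, as were Id2 and Cd74 from outside this list. Summed, the list of 18 stood at 257.9 CPM in members against 216.3 in other cells in CLP, and at 200.3 against 138.5 CPM in LMPP.

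Several genes shared by monocytes and dendritic cells were high as well. Of 19 monocyte and macrophage genes, 8 of 12 measured were 2-fold or more higher and 1 lower in CLP (median log2 2.10). In LMPP it was 5 and 1 of 8 (2.68). Among all measured genes 7.79% were higher and 5.65% lower in CLP, and 11.3% and 5.34% in LMPP. This list includes the given markers Ly6c2 and Cybb. Tyrobp, the adaptor DAP12 through which Siglech signals, had 0 to 28 UMIs per CLP member and 1 to 27 per LMPP member and stood at 728.2 against 162.9 CPM and 731.9 against 151.6 CPM. Fcer1g, the adaptor of Fc receptors, stood at 420.5 against 93.7 and 554.7 against 65.6 CPM, and Mpeg1, a pore-forming protein of phagocytes, at 246.2 against 53.6 and 192.6 against 5.66 CPM. Yet F13a1, Fcgr3, Cd14 and Adgre1 had no UMI in any member, and Csf1r, the receptor of macrophage growth factor, had 3 UMIs in CLP and 4 in LMPP members. Neutrophil granule genes were low: 9 of 13 had no UMI in CLP members and 10 of 13 none in LMPP members, with Elane, S100a8 and S100a9 among them, while Prtn3 stood at 92.5 against 306.8 CPM in LMPP.

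**Figure D2:**
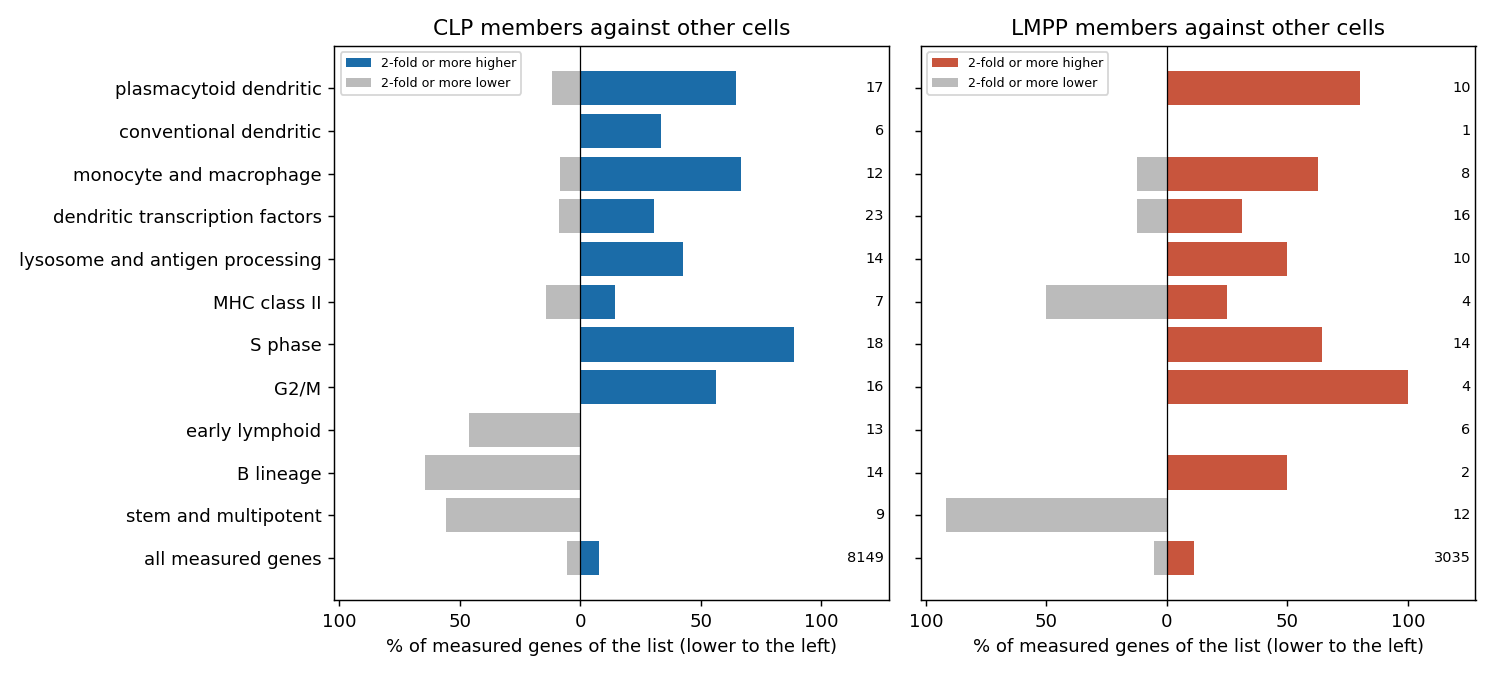
Share of the measured genes of each list that were 2-fold or more higher (colour, right) or lower (grey, left) in members than in the other cells of their library, with the number measured at the right edge. In CLP 64.7% of the plasmacytoid list and 88.9% of the S phase list were higher, against 7.79% of all measured genes. The list of dendritic transcription factors includes Irf8 and the B lineage list Ebf1, the genes that chose the members.

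The 30 listed transcription factors of dendritic cells include Irf8, which chose the members, and the given marker Spib. In CLP 7 of 23 measured were 2-fold or more higher (30.4%, against 7.79% of all measured genes) and 2 lower (median log2 0.28), and in LMPP 5 of 16 were higher (31.2%, against 11.3%) and 2 lower (0.69), Irf8 being 1 of the higher ones in each. The rule itself placed Irf8 there, so these shares are a description and no test against all measured genes. Tcf4, the E protein that drives plasmacytoid dendritic cells, had 0 to 12 UMIs per CLP member and 0 to 7 per LMPP member, both with a median of 3, and stood at 419.1 against 185.2 CPM (1.18, 0.98 to 1.37) and 385.2 against 132.6 CPM (1.54, 1.09 to 1.96). Runx2, which acts in the exit of these cells from the marrow, stood at 197.8 against 51.8 CPM and 146.4 against 57.9 CPM. Zeb2, a repressor that acts in dendritic cell development, stood at 146.5 against 66.2 and 154.1 against 36.6 CPM. Mycl was at 71.8 against 15.5 CPM in CLP and had 3 UMIs in LMPP members. Spi1, which encodes PU.1, stood at 99.6 against 109.4 CPM in CLP (−0.13, −0.52 to 0.23) and 146.4 against 194.1 CPM in LMPP (−0.41, −1.15 to 0.25). Id2, which opposes E proteins in conventional dendritic cells, stood at 41.0 against 47.3 CPM in CLP (−0.21, −0.82 to 0.36) and 4 UMIs in LMPP. Mef2c, Ikzf1 and Bcl11a were each within 2-fold in both libraries.

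Lysosomal genes were among those higher in both. Ctsb, the protease cathepsin B, had 199 UMIs in 60 CLP members and 44 in 11 LMPP members, and stood at 291.6 against 67.4 CPM (2.11, 1.86 to 2.37) and 339 against 51.7 CPM (2.71, 2.21 to 3.19). Of 15 genes of lysosome and antigen processing, 6 of 14 measured were 2-fold or more higher in CLP (median log2 0.67) and 5 of 10 in LMPP (0.95), with 0 lower in either. Of 18 sensors of nucleic acid and their helpers, 2 of 13 measured in CLP were 2-fold or more higher and 4 lower (median 0.37), and 3 of 5 in LMPP higher and 0 lower (1.31). For the lists of this paragraph, the shares over all measured genes were 7.79% higher and 5.65% lower in CLP. In LMPP they were 11.3% and 5.34%. Pld4, an endosomal exonuclease, stood at 93.8 against 39.7 and 154.1 against 11.3 CPM, and Unc93b1, the chaperone of endosomal Toll-like receptors, at 174.4 against 91.6 and 123.3 against 49.7 CPM. Interferon-stimulated genes differed in direction among themselves in CLP, with 2 of 13 measured 2-fold or more higher and 6 lower (median −0.63), Ifitm3 at 82.1 against 245.8 CPM and Ifi203 at 92.3 against 240.3 CPM among the lower; in LMPP 3 of 10 were higher and 2 lower (−0.11).

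Genes of dividing cells were higher in members. In CLP, 16 of 18 S phase genes were 2-fold or more higher (median log2 1.48), and in LMPP 9 of the 14 measured (1.09), with 0 lower. The share higher over all measured genes was 7.79% in CLP and 11.3% in LMPP. Pcna, the sliding clamp of DNA polymerase, stood at 249.1 against 72.1 CPM in CLP (1.79, 1.52 to 2.05) and 161.8 against 83.7 CPM in LMPP (0.95, 0.24 to 1.59). Top2a, the topoisomerase of replicating and dividing cells, stood at 272.5 against 50.1 and 161.8 against 30.4 CPM. Birc5, an inhibitor of apoptosis that works at mitosis, was in 30 CLP members and stood at 136.3 against 17.2 CPM, while its 12 UMIs in LMPP members lay in 2 cells, 9 of them in 1. Thinned to 2000 UMIs, 67.0% of CLP members (56.2 to 76.7%) had 3 or more UMIs of the S phase list, against 27.6% of the other CLP cells (24.5 to 30.8%), and 73.3% of LMPP members (44.9 to 92.2%) against 23.3% (19.9 to 27.0%). For the G2/M list the shares were 21.6% against 4.39% in CLP and 13.3% (1.66 to 40.5%) against 3.58% in LMPP. Without thinning the S phase shares were 92.0% against 61.7% and 100% against 64.2%.

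**Figure D3:**
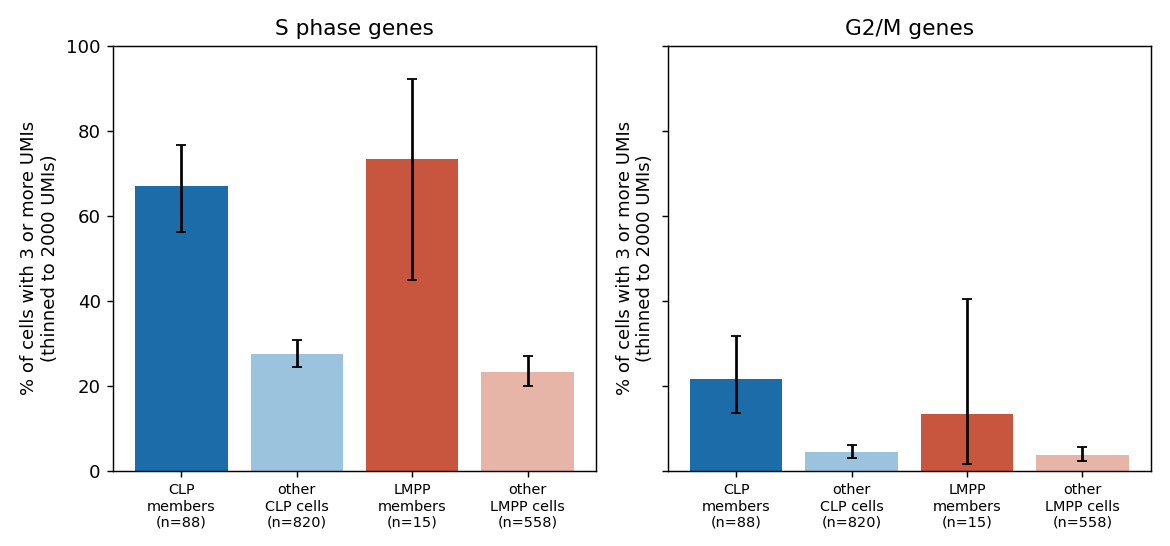
Share of cells with 3 or more UMIs of the S phase and G2/M lists after thinning every cell to 2000 UMIs, with exact binomial 95% intervals. Members of both libraries stand at 67.0% and 73.3% for S phase against 27.6% and 23.3% of the other cells; for G2/M the LMPP interval overlaps that of the other LMPP cells.

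In CLP the lower genes included Cd79a, at 4 UMIs or 5.86 against 103.3 CPM (−4.14, −6.02 to −2.77), Rgcc (24.9 against 146.3 CPM), Hes1, a target of Notch (24.9 against 135.5 CPM), Myl10 (80.6 against 392.3 CPM) and Mzb1, a chaperone of B and plasmacytoid cells (49.8 against 152.7 CPM). Of 14 B lineage genes measured, Ebf1 among them, 9 were 2-fold or more lower and 0 higher (median −1.88). The limit on Ebf1 moves with these genes: among CLP cells with at most 1 Ebf1 UMI, Cd79a stood at 18.8 CPM in those with no Irf8 UMI and at 9.25 CPM in those with 1 to 3. Of 13 early lymphoid genes 6 were 2-fold or more lower and 0 higher. For both lists, the shares over all measured genes were 5.65% lower and 7.79% higher. Dntt, the polymerase that adds bases at V(D)J joints, had 0 to 31 UMIs per member with a median of 5.5 and stood at 1026 against 1903 CPM (log2 −0.89, an interval that excluded equal levels), and 86 of 88 members had at least 1. Il7r was at 118.7 against 143.6 CPM (−0.28, −0.62 to 0.06).

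In LMPP the lower genes included those of stem and multipotent cells, of which 11 of 12 measured were 2-fold or more lower and 0 higher (median −1.91). All measured genes had shares of 5.34% lower and 11.3% higher in LMPP. Ctla2a, a protease inhibitor gene, stood at 30.8 against 688.3 CPM (−4.48, −6.36 to −3.12), Lmo2, a bridging factor of stem and erythroid cells, at 146.4 against 756.3 CPM, and Car2, a carbonic anhydrase of myeloid and erythroid progenitors, at 77.1 against 456.1 CPM. Cd34, which marks stem and progenitor cells, had 0 to 3 UMIs per member with a median of 1 and stood at 138.7 against 537 CPM (−1.95, −2.71 to −1.29). Of 13 early lymphoid genes 6 could be measured in LMPP, and 0 were 2-fold or more higher or lower (median log2 0.12). Dntt stood at 470 against 403.4 CPM (0.22, −0.17 to 0.59). Il7r, which the gate excludes as a protein, had 6 UMIs in 5 of 15 members, or 46.2 against 2.32 CPM. As with Cybb, these are too few UMIs for its ratio to be read. Blnk, an adaptor of the B cell receptor, stood at 92.5 against 6.43 CPM (3.84, 2.72 to 4.89). Of the genes lower in both libraries, Ctla2a was at 33.7 against 159.1 CPM in CLP, Tspan32 at 46.9 against 212.7 and 23.1 against 235.3 CPM, and Pim1, a kinase of cytokine signalling, at 131.9 against 335.7 and 53.9 against 287.3 CPM.

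The CLP cells with at most 1 Ebf1 UMI were also grouped by their Irf8 UMIs, as a description of the range that the threshold divides. Siglech stood at 17.1 CPM in 221 cells without Irf8, 21.9 with 1 to 3 UMIs, 59.8 with 4 to 7, 114.5 with 8 to 11, 322.5 with 12 to 19 and 348.3 with 20 or more. Ly6d went from 235 CPM through 256.4, 645.8, 1384 and 2983 to 5192 CPM over the same steps. The intervals of neighbouring steps did not overlap for Ly6d from 1 to 3 UMIs on, while the last 2 steps of Siglech did. Dntt was near one level up to 7 Irf8 UMIs (1882, 1901 and 2102 CPM) and lower above (1462, 1113 and 696.7 CPM). Mpo, the peroxidase of granulocyte progenitors, stood at 76.9 CPM without Irf8 and at 6.57 CPM with 20 or more. The median depth was 4780 UMIs in the first step and 8616 in the last, and its part in these values was not tested. In LMPP only 5, 4, 2 and 9 cells filled the 4 upper steps, too few for such a series.

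**Figure D4:**
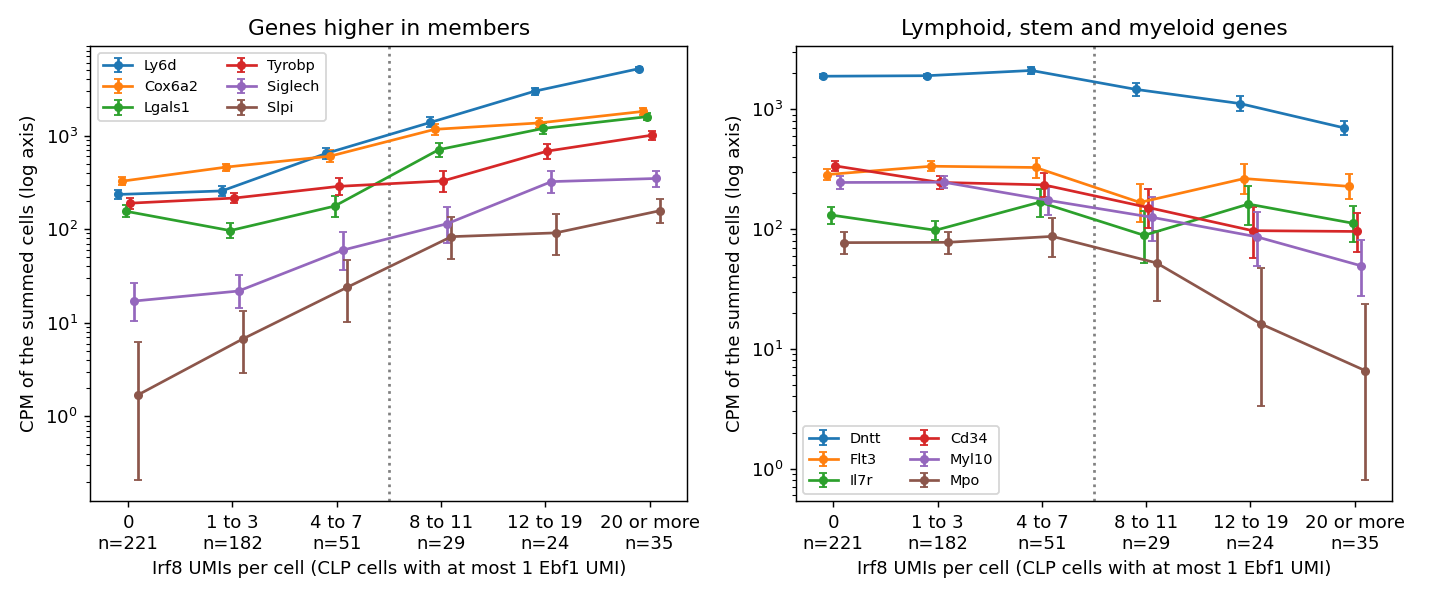
CPM of 12 genes (log axis) in CLP cells with at most 1 Ebf1 UMI, grouped by their Irf8 UMIs, with exact Poisson 95% intervals; the dotted line marks the threshold of 8 UMIs. Ly6d is at 235 CPM in the first step and 5192 in the last, and Dntt at 2102 CPM with 4 to 7 Irf8 UMIs and 696.7 with 20 or more.

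The CLP members varied among themselves. The 61 with a Siglech UMI and the 27 without had median depths of 7704 and 8429 UMIs. Those with Siglech had more Bst2 (721.3 against 290.9 CPM), Lgals1 (1514 against 605.6), Ly6d (4332 against 1683), Ctsb (374.4 against 104.9), Cd7 (150.2 against 28.6) and Mki67, a marker of proliferation (90.95 against 4.77 CPM, in 18 cells and 1 cell), and each of these 6 intervals of the ratio excluded equal levels. They had less Dntt (863 against 1392 CPM), Cd34 (82.5 against 176.4) and Myl10 (55.0 against 138.3), again with intervals clear of equal levels. Flt3, the receptor that drives dendritic cell development, stood at 220.0 against 219.4 CPM (log2 0.00, −0.51 to 0.54) and Spi1 at 101.5 against 95.4. Siglech was chosen for this division after its values were seen, and Irf8 itself was higher in the first set (2610 against 1640 CPM).

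The 15 LMPP members also varied, here divided by Ly6d. The 8 with a Ly6d UMI held 85 of 90 Bst2 UMIs (1238 against 81.8 CPM), all 20 Cd7 UMIs, 37 of 44 Ctsb UMIs (538.8 against 114.5 CPM) and 231 of 291 Lgals1 UMIs (3364 against 981.6 CPM). Their Dntt was lower, 8 UMIs against 53 in the 7 other cells (116.5 against 867.1 CPM, log2 −2.90, −4.18 to −1.81). Cd34 had UMIs in 3 of the 8 and in all 7 of the others, at 72.8 against 212.7 CPM, with an interval that includes equal levels (−1.55, −3.39 to 0.03). Cox6a2 (815.5 against 605.3 CPM), Tcf4 (480.6 against 278.1), Plac8 (6087 against 5644) and Irf8 (2723 against 2258) had intervals that include equal levels. Single cells weigh heavily here: the cell with the most UMIs of any member, 20023, held 59 of the Lgals1 and 47 of the 64 Ifitm3 UMIs, and the shallowest, with 2284 UMIs and 6.30% of them mitochondrial, held 14 of the 30 Ly6c2 UMIs. The division was chosen after these values were seen.

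**Figure D5:**
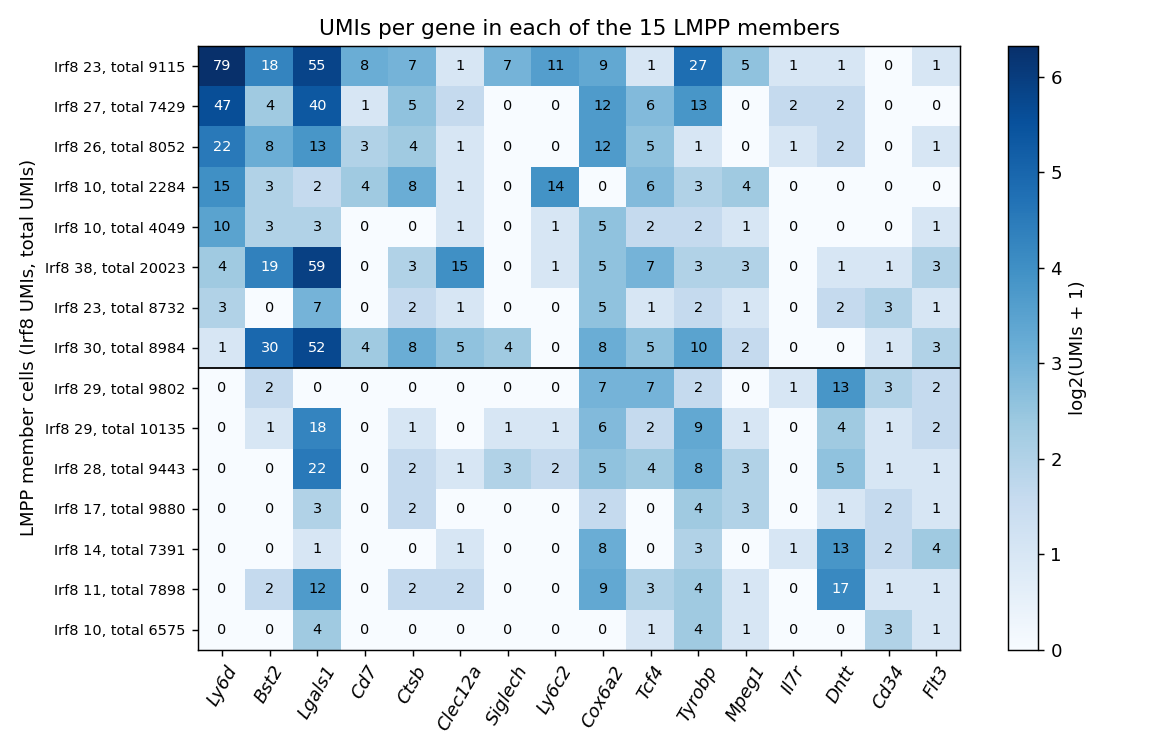
UMIs of 16 genes in each of the 15 LMPP members, ordered by Ly6d, with colour for log2(UMIs + 1) and the black line dividing cells with and without Ly6d. The 8 cells above the line hold all Cd7 UMIs, and all 7 below it have a Cd34 UMI, with 13, 13 and 17 Dntt UMIs in 3 of them.

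Set directly against each other, 93.4% of 1493 genes were within 2-fold between CLP and LMPP members. By the same rule 60 were higher in CLP members (4.02%) and 39 lower (2.61%), with a median log2 ratio of −0.03. The 15 LMPP cells limit this comparison: the interval excluded equal levels for 55 and 37 of these genes, and the whole interval lay past 2-fold for 8 and 4. The counts of 60 and 39 are therefore a description, and single genes are read by their intervals. Of the 60, 13 are unnamed gene models or belong to the classes left out of naming. Median-of-ratios scaling gave 78 higher and 24 lower, and scaling without mitochondrial and ribosomal genes 139 and 143. Higher in CLP members were Ly6d (3518 against 1395 CPM; 1.34, 1.12 to 1.56), Wdr89 (2147 against 816.7; 1.39, 1.11 to 1.69), Dntt (1026 against 470; 1.13, 0.75 to 1.53), Cox6a2 (1509 against 716.5; 1.08, 0.77 to 1.40), Siglech (275.5 against 115.6; 1.25, 0.49 to 2.12) and Ccnd3, cyclin D3 (690.1 against 300.5; 1.20, 0.73 to 1.71). For all 6 genes the other cells of the 2 libraries also stood apart in the same direction. Ly6d was at 530.9 CPM in the other CLP cells and 9.52 in the other LMPP cells, Cox6a2 at 342.5 and 35.5, and Siglech at 20.8 and 3.60 CPM. Wdr89 was at 2490 and 832.2 CPM, Dntt at 1903 and 403.4, and Ccnd3 at 205.9 and 120.2 CPM, so these differences are not particular to the members.

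Higher in LMPP members were the interferon-induced membrane genes Ifitm1 (169.5 against 7.33 CPM; −4.53, −6.29 to −3.10) and Ifitm3 (493.1 against 82.1; −2.59, −3.13 to −2.05), near-identical in part to their neighbours of the same family, and Ms4a6c, a tetraspan gene of myeloid cells (285.1 against 46.9; −2.60, −3.33 to −1.88). The single deepest LMPP member held 77.3% of the Ifitm1 and 73.4% of the Ifitm3 UMIs, whereas the UMIs of Ms4a6c were spread over 10 of 15 cells. Against the other LMPP cells Ifitm1 was lower in the members (169.5 against 618 CPM), so its level is not particular to them. Ms4a6c was higher there (285.1 against 24.2 CPM). Slpi (log2 −0.05), Tyrobp (−0.01), Tcf4 (0.12), Bst2 (−0.24) and Mpeg1 (0.35) were within 2-fold between the members of both libraries. Of the plasmacytoid list 5 of 11 measured genes were 2-fold or more higher in CLP members and 0 lower (median 0.48). Over 3161 measured genes the shares were 5.25% and 4.78% (median −0.03). Summed, the list stood at 10950 CPM in CLP members and 9677 CPM in LMPP members. In the other cells it stood at 4560 CPM in CLP and 1922 CPM in LMPP, so this difference is not particular to the members. A few abundant genes make up most of these sums. Plac8 gave 5879 CPM in LMPP members and 1313 CPM in the other LMPP cells, and Ly6d gave 3518 CPM in CLP members. Plac8 was higher in LMPP than in CLP members, so the sums do not give the level of the other listed genes.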

How the data were processed

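Single-cell RNA-seq counts were analysed from 3 libraries of mouse bone marrow (LMPP, CLP and pro-B, 1 library each). The deposited values are raw counts of UMIs per gene and cell barcode, made by the authors; Cell Ranger and mm10 are named per the submitters' processing notes. Its version, the annotation used and the calling of cells: not given in the sources used here. Any filtering upstream sets which barcodes are seen, and the split of reads between near-identical genes (Ly6c2 and Ly6c1, the Ifitm genes) is uncertain. Cells of an iLS population named in the study are not analysed here.

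Kept cells had at least 500 genes, and mitochondrial UMIs made up no more than 10%. UMIs were summed over the members and over the other cells of each library and scaled to CPM. Ratios carry the exact conditional 95% interval of 2 Poisson counts, levels a Poisson and shares a Clopper-Pearson interval; each covers counting error only, since there is 1 library per population and no test was possible. A group at 0 was set to 3 UMIs. For comparing shares, cells were thinned to 2000 UMIs. Doublets were called with scrublet (scanpy 1.11.5, expected rate 1%) and kept. Python 3.11.15, NumPy 2.4.6, SciPy 1.17.1, pandas 2.3.3 and matplotlib 3.10.9 were used, and the scripts were tested on simulated data.

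The members, gene lists and divisions were chosen with earlier results of these data known. Named genes were, per comparison, the 10 highest and 10 lowest by the interval bound nearest to no difference, the given markers, the dendritic transcription factors, and up to 4 genes of each other list with the highest CPM. Outside this rule, Csf1r, Itgax, Clec9a and genes given as being at 0 (Xcr1, Cadm1, Tlr9, F13a1, Fcgr3, Cd14, Adgre1, Elane, S100a8, S100a9) were chosen after their values were seen. Alternatives were other thresholds of Irf8 and Ebf1, scalings, minimum levels, cell filters and depths. The result of 1 named gene is not reported here.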

Additional observations from a re-analysis of the deposited data

How the results depend on the processing

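The share of CLP cells that were members was 6.22% with 12 or more Irf8 UMIs, 12.7% with 5 or more and 11.7% with 10 or more per 10000 UMIs. With 12 or more, 96 genes were higher in CLP than in LMPP members, and with 5 or more, 104 were higher in LMPP members than in other LMPP cells. Scaling without mitochondrial and ribosomal genes gave 98 lower genes in CLP, 241 higher and 230 lower in LMPP, and 139 and 143 between the members. Median-of-ratios scaling gave 52 lower in CLP, 86 and 193 in LMPP, and 24 lower between the members, where weighing every cell the same gave 64. With a minimum of 50 CPM the counts were 205 and 84 in CLP, 376 and 220 in LMPP, and 212 and 165 between the members; with 300 CPM they were 23 and 7, 36 and 15, and 12 and 2, since the minimum sets how many genes are counted. For the other settings the cause was not tested. The other 61 recomputed counts and shares stayed within 1.5 times or their interval. Of the ratios of named genes 4086 stayed the same, 119 moved and 2 reversed. Both were of Tubb4b, a tubulin, when the member cell with most of its UMIs was left out, a setting chosen after seeing the data: −0.76 (−2.40 to 0.48) in LMPP and 0.19 (−1.17 to 1.90) between the members. No paired analysis was possible because each population has 1 library. With 15 cells, LMPP members resolve no level under 23.1 CPM.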
